A study of Mus musculus with 6 samples.

Results

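Integrins, receptors of the CD2 and SLAM family, nectin-binding receptors and related adhesion molecules were described here as 32 genes chosen by symbol out of 18046 listed genes. They comprise 10 integrin alpha chains, 5 integrin beta chains, 4 genes for integrin or selectin ligands and CD44, 8 genes of the CD2 and SLAM family with their adaptor, and 5 genes for nectin and nectin-like binding proteins. RNA came from naive CD4+ T cells of the spleen of C57BL/6 mice, aged 3 weeks in the labels. Antibodies to CD3 and CD28 activated the cells over 3 days of culture in Th1-polarizing conditions. The 2 groups received either vehicle (n = 3) or LPC at 20 µM (n = 3), and every library shared the antibodies and the polarizing conditions. The labels do not spell out LPC, name the vehicle, or state if replicate libraries stem from different mice or cultures, so the spread behind each p-value may be technical.

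Integrins are heterodimers of an alpha and a beta chain that bind matrix proteins or cell surface ligands, and signals from the T cell receptor switch them to a high-affinity state through talin and kindlin. Receptors of the SLAM family mostly bind a copy of themselves on a neighbouring cell and signal through the adaptor SAP, encoded by Sh2d1a. CD226, CD96 and TIGIT are surface receptors of T and natural killer cells that share nectin-like ligands such as the poliovirus receptor homologue, encoded by Pvr.

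Values are FPKM, fragment counts scaled for transcript length and for the mapped reads of the library, so levels of different genes can be set side by side. The FPKM sums ran from 556561 to 588274 with vehicle and from 562046 to 641026 with LPC. From the steps between low values, the depth was estimated at 19.25 to 19.75 M reads per library. LPC replicate 3 stood apart, with the highest FPKM sum, 17.89% of genes at 0 against 19.43% to 20.24% in the others, and the highest score on the first principal component (21.1, against 3.03 and 10.84 for the other LPC libraries). Markers of the labelled cell type were present. All 10 listed T cell markers reached 1 FPKM, with a summed level of 2027 to 2042 with vehicle and 1940.2 to 2079.8 with LPC. Cd4 itself was listed at 197 ± 10.2 and 164 ± 17.5 FPKM (SD, n = 3 each, as for all means here) and missed the threshold (log2 change -0.27, limma adjusted p = 0.0875). Cd8a stayed at or below 0.33 FPKM, while Cd8b1 was listed at 13.8 and 11.7 FPKM on average. None of 8 B cell, 6 platelet and 4 erythroid markers passed the filter. Of 9 macrophage and monocyte markers only Cd68 did, with summed levels of 3.58 to 5.70 FPKM with vehicle and 3.41 to 4.97 with LPC. Of 7 natural killer cell markers only Eomes did, and Ncr1 and Klra8 were at 0 in all 6 libraries. Of 7 dendritic cell markers Zbtb46, H2-DMb2 and Batf3 did, with summed levels of 86.3 to 105 FPKM with vehicle and 107 to 148 with LPC, and the other 4 stayed at or below 0.0700 FPKM. Batf3 alone made up most of these sums, with means of 92.4 and 127 FPKM. Zbtb46 averaged 2.82 and 1.38 FPKM, and H2-DMb2 3.24 and 5.24 FPKM. Of 5 neutrophil markers only Ly6g did, with summed levels of 3.10 to 4.85 FPKM with vehicle and 8.58 to 16.9 with LPC, and Elane was at 0 throughout. Ly6g rose (log2 change 1.5, limma adjusted p = 0.000482), 2 of the 3 dendritic cell markers rose and the other fell, and Eomes fell. The part of these markers in the results below was not tested.

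Of the 32 genes, 27 passed the filter of 1 FPKM or more in 3 or more libraries and entered the test, which was fitted over all 10138 genes that passed. With LPC, 1 of the 27 rose (Icam2) and 6 fell (Cd226, Cd84, Slamf1, Pvr, Itga6 and Slamf6) at a limma adjusted p under 0.05. Over all tested genes the test called 13.7%, with 5.82% higher and 7.91% lower. The median log2 change was -0.19 over the 27 genes and -0.04 over all tested genes. Changes are given on the scale of log2(FPKM + 1), LPC minus vehicle, which understates the change of genes with low values. The LPC libraries lay all above the vehicle libraries for 3 of the 27 and all below for 10, where the shares over all tested genes were 13.7% and 20.7% (34.5% in either direction). The balance between directions depended on the scaling. Higher calls made up 42.4% of all calls, and 53.1% when each library was centred on its median. Centring gave 3 rises and 5 falls among the adhesion genes, with Itga3 and Icam1 added to the rises and Slamf6 lost from the falls. Over all tested genes it gave 646 rises and 571 falls, where the reported fit gave 590 and 802. In bulk RNA, fewer cells that carry a transcript and less of it per cell cannot be told apart.

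**Figure D1:**
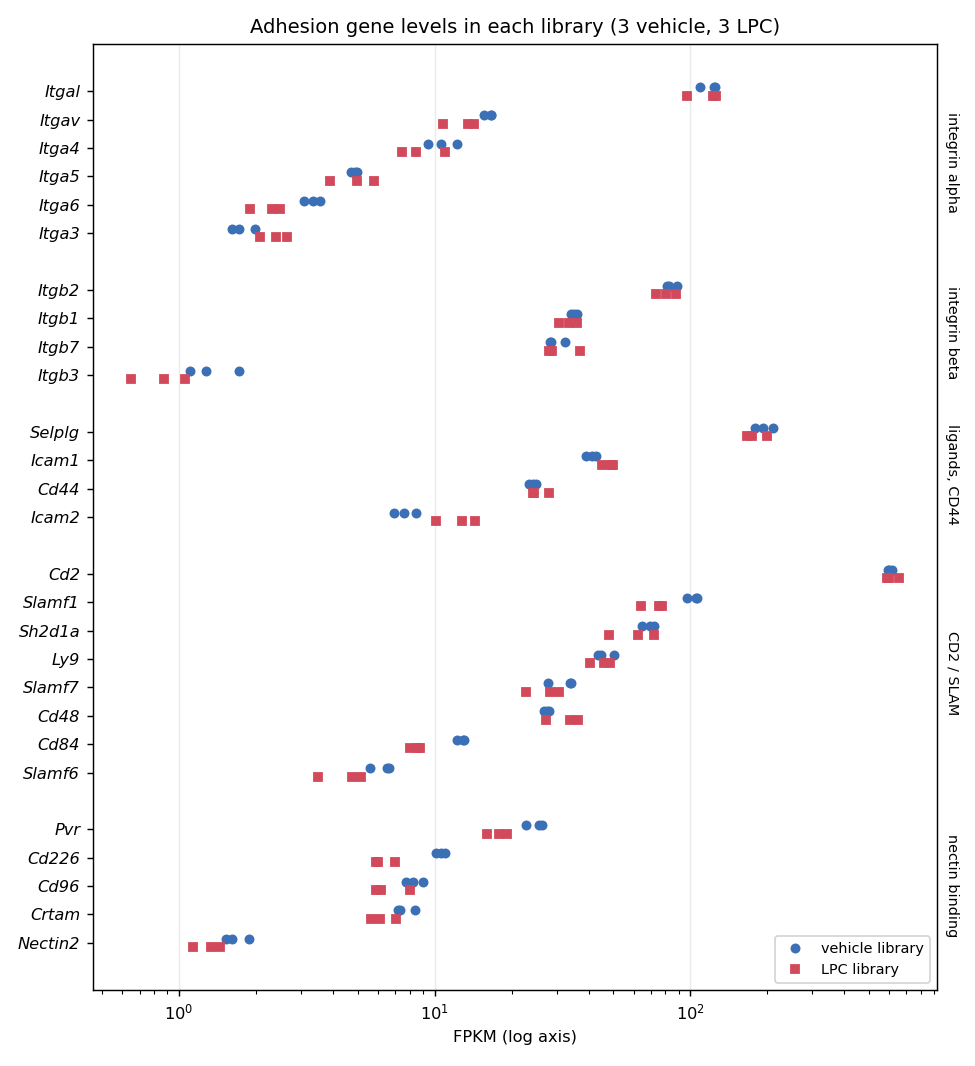
FPKM of the 27 tested adhesion genes in each library, on a log axis, ordered by role and by level with vehicle; circles are the 3 vehicle libraries and squares the 3 LPC libraries. Levels span from about 1 FPKM (Itgb3) to over 600 FPKM (Cd2), and the groups separate for Icam2, Cd84, Slamf1, Pvr and Cd226 among others.

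Among integrin alpha chains, Itgal, whose product pairs with the beta 2 chain to form LFA-1, had by far the highest level and did not pass the test. Itgal was listed at 124.18, 125.08 and 108.88 FPKM with vehicle and at 123.07, 126.17 and 97.11 FPKM with LPC. The groups overlapped, and LPC replicate 3 was the lowest library (log2 change -0.05, 95% interval -0.29 to 0.18, limma adjusted p = 0.776). Itga6, the alpha chain of laminin receptors, fell. It was listed at 3.35, 3.09 and 3.55 FPKM with vehicle and at 2.32, 2.48 and 1.90 FPKM with LPC, so that every LPC library was below every vehicle library. The mean went from 3.33 ± 0.231 to 2.23 ± 0.30 FPKM (log2 change -0.42, SE 0.10, limma adjusted p = 0.0182). Itga6 lies on chromosome 2 of GRCm38 at 71786886 to 71858427. Leaving out vehicle replicate 1 (adjusted p = 0.0722), LPC replicate 1 (0.0511) or vehicle replicate 3 (0.0556) ended its call, with log2 changes of -0.45 to -0.39, as did no filter on low values (0.0788).

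Itgav, the alpha chain of vitronectin receptors, lay lower in each LPC library without passing. It was listed at 16.57, 16.54 and 15.63 FPKM with vehicle and at 13.55, 14.30 and 10.81 FPKM with LPC (log2 change -0.32, interval -0.55 to -0.09, limma adjusted p = 0.0605). Without LPC replicate 2 it passed (adjusted p = 0.0292, log2 change -0.40). That fit called 1217 falls over all tested genes, where the reported fit called 802. With GC and length trends removed, Itgav had a log2 change of -0.16 (limma adjusted p = 0.0905). Itga4, the alpha chain of the VCAM-1 receptor VLA-4 and of the gut-homing integrin, was listed at 10.7 ± 1.37 and 8.95 ± 1.81 FPKM with overlapping groups (-0.25, adjusted p = 0.220). It too passed without LPC replicate 2 (adjusted p = 0.0427, log2 change -0.39). With GC and length trends removed, its log2 change was -0.06 (limma adjusted p = 0.609). Itga3, another laminin receptor chain, was listed at 1.61, 1.71 and 1.98 FPKM with vehicle and at 2.64, 2.39 and 2.07 FPKM with LPC. Its groups did not overlap, but it did not pass (0.28, interval 0.06 to 0.51, adjusted p = 0.0879), whereas it did with quantile normalization (0.0302) and median centring (0.0492). Itga5, the alpha chain of the fibronectin receptor, was listed at 4.85 ± 0.127 and 4.88 ± 0.948 FPKM, with the LPC libraries on both sides of the vehicle libraries (adjusted p = 0.986).

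The other 4 alpha chains stayed under the filter. Itga2, a collagen receptor chain, was listed at 0.717 ± 0.0862 FPKM with vehicle and 0.577 ± 0.159 FPKM with LPC. Itgae, which encodes CD103 of tissue-resident T cells, had at most 0.09 FPKM in any library. Itga1, another collagen receptor chain, was at 0 in 5 libraries and 0.01 FPKM in vehicle replicate 2. Itgax, which encodes CD11c of dendritic cells and some activated T cells, was listed at 0.00, 0.00 and 0.01 FPKM with vehicle and at 0.05, 0.03 and 0.05 FPKM with LPC. At the estimated depth 1 read of Itgax is worth about 0.013 FPKM, so these values stand for a few reads, and no fold is given.

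No beta chain with 1 FPKM or more in 3 libraries passed the test. Itgb2, the beta chain of LFA-1, was listed at 84.4 ± 3.93 and 80.7 ± 7.46 FPKM (log2 change -0.07 with an interval of -0.27 to 0.13, limma adjusted p = 0.660). Itgb1, the common partner of the VLA alpha chains, was listed at 35.2 ± 0.953 and 33.4 ± 2.84 FPKM (-0.08, adjusted p = 0.607, interval -0.27 to 0.12). Itgb7, the partner of the alpha 4 and alpha E chains, was listed at 29.7 ± 2.22 and 31.3 ± 4.89 FPKM (0.06, adjusted p = 0.742, interval -0.17 to 0.30). The means of these 3 chains had the same order in both groups, although Itgb7 (36.90 FPKM) was above Itgb1 (33.48 FPKM) in LPC replicate 1, and each interval holds 0. Itgb3, a partner of the alpha V chain, was listed at 1.27, 1.10 and 1.72 FPKM with vehicle and at 1.05, 0.65 and 0.87 FPKM with LPC. All LPC libraries were below all vehicle libraries, and the difference did not pass (-0.35, interval -0.60 to -0.09, adjusted p = 0.0713). Itgb3 met the filter through its 3 vehicle libraries, while LPC replicates 2 and 3 were under 1 FPKM. Its separation is therefore not independent of the filter. Itgb5, a further partner of alpha V, stayed under the filter with 0.33, 0.24 and 0.34 FPKM with vehicle and 0.16, 0.14 and 0.14 FPKM with LPC. With no filter on low values its log2 change was -0.18 at an adjusted p of 0.0469. Of the tested chains, 2 of 6 alpha chains (Itga6 and Itgav) and 1 of 4 beta chains (Itgb3) were listed lower in all 3 LPC libraries. Of these only Itga6 passed the reported test. Among all tested genes, 20.7% lay all below in this way and 13.7% all above. The other tested chains overlapped between groups, apart from Itga3, which lay above. Of the chains under the filter, Itgb5 lay all below, Itgax lay all above at a few reads, and the others overlapped.

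Among ligands, Icam2 rose and was the 1 adhesion gene called higher. ICAM-2 is a constitutive ligand of LFA-1. Icam2 was listed at 8.44, 7.62 and 6.96 FPKM with vehicle and at 10.08, 12.76 and 14.32 FPKM with LPC. Every LPC library was above every vehicle library, and the means were 7.67 ± 0.741 and 12.4 ± 2.14 FPKM, a ratio of 1.61 (log2 change 0.62, SE 0.12, limma adjusted p = 0.00681). The call held with each library left out in turn and was lost with no filter on low values (adjusted p = 0.0608). Icam2 lies on chromosome 11 at 106377656 to 106388139. Icam1, the inducible ligand of LFA-1, was listed at 42.67, 41.39 and 39.18 FPKM with vehicle and at 49.94, 49.01 and 45.17 FPKM with LPC. Its groups did not overlap and it did not pass (0.22, interval 0.04 to 0.41, adjusted p = 0.104), though it did with median centring (0.0446). Icam1 remained the more abundant of the pair in each library.

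Selplg, which encodes the selectin ligand PSGL-1, was the second most abundant of the 32 genes, at 195 ± 16.4 FPKM with vehicle and 180.4 ± 17.6 FPKM with LPC (log2 change -0.11, interval -0.33 to 0.11, limma adjusted p = 0.488). Cd44, the hyaluronan receptor and a marker of activated T cells, was listed at 24.2 ± 0.795 and 25.6 ± 2.12 FPKM (0.08, adjusted p = 0.603, interval -0.12 to 0.27). The groups of both genes overlapped.

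**Figure D2:**
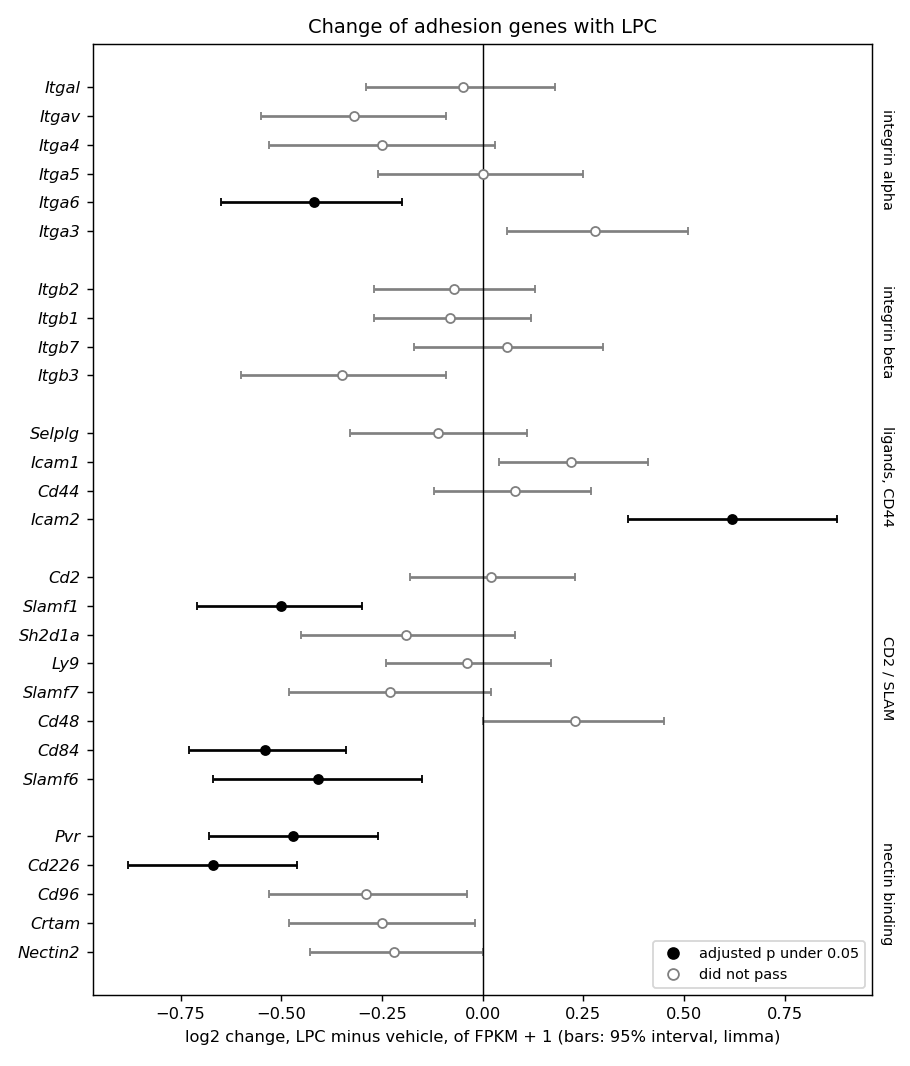
Log2 change of FPKM + 1, LPC minus vehicle, for the 27 tested adhesion genes with 95% intervals from limma; filled points passed at an adjusted p under 0.05. Icam2 (0.62) lies to the right, Cd226 (-0.67), Cd84 (-0.54), Slamf1 (-0.50), Pvr (-0.47), Itga6 (-0.42) and Slamf6 (-0.41) to the left.

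In the CD2 and SLAM family, 3 of 8 genes fell and none rose, a share called of 37.5% against 13.7% over all tested genes. Cd84, whose product is a self-binding receptor, was listed at 12.87, 12.25 and 13.01 FPKM with vehicle and at 8.58, 8.78 and 8.03 FPKM with LPC. The spread within each group was small beside the gap between them, and the mean fell from 12.7 ± 0.404 to 8.46 ± 0.388 FPKM (log2 change -0.54, SE 0.09, limma adjusted p = 0.00303). Slamf1, the founding self-binding receptor of the family, was listed at 97.17, 106.41 and 104.96 FPKM with vehicle and at 75.75, 77.74 and 64.05 FPKM with LPC. Its groups did not overlap either (-0.50, SE 0.10, adjusted p = 0.00568). Slamf6, which encodes Ly108, was listed at 6.61, 6.51 and 5.58 FPKM with vehicle and at 3.51, 5.16 and 4.77 FPKM with LPC (-0.41, SE 0.12, adjusted p = 0.0417). The gap between the lowest vehicle and the highest LPC library of Slamf6 was narrow. Leaving out LPC replicate 1 (0.154), vehicle replicate 1 (0.153) or vehicle replicate 2 (0.118) ended its call, and its log2 change was then -0.38 to -0.28. It was also lost with median centring (0.0783), quantile normalization (0.0900), unfiltered low values (0.153) and removal of GC and length trends (0.116, log2 change -0.27).

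The other 5 genes of the family did not pass. Cd2, the adhesion receptor for CD48 in the mouse, had the highest level of the 32 genes, at 603 ± 10.4 FPKM with vehicle and 613 ± 35.1 FPKM with LPC, above 99.3% of all listed genes. Its log2 change was 0.02 (interval -0.18 to 0.23, limma adjusted p = 0.899) and took the other sign with quantile normalization (-0.11). Cd48, its membrane-anchored ligand, was listed at 26.79, 27.47 and 27.90 FPKM with vehicle and at 27.28, 33.77 and 36.25 FPKM with LPC. LPC replicate 1 lay within the vehicle range and the other LPC libraries above it (0.23, adjusted p = 0.162), and without LPC replicate 1 Cd48 passed (0.34, adjusted p = 0.0462). Slamf7, also a self-binding receptor, was listed at 31.9 ± 3.58 and 27.2 ± 3.98 FPKM (-0.23, adjusted p = 0.201). Ly9 was listed at 46.2 ± 3.64 and 45.0 ± 4.01 FPKM (-0.04, adjusted p = 0.827), and the sign of its change turned with median centring (0.01). Sh2d1a, the adaptor gene, was listed at 69.49, 71.86 and 64.70 FPKM with vehicle and at 47.99, 62.61 and 72.00 FPKM with LPC. LPC replicate 1 was the lowest and LPC replicate 3 the highest of its 6 libraries (-0.19, interval -0.45 to 0.08, adjusted p = 0.319).

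The genes that fell are neighbours. The SLAM genes form a cluster on chromosome 1 of GRCm38, which spans 390.2 kb from 171558718 to 171948958 in the order Cd244, Ly9, Slamf7, Cd48, Slamf1, Cd84 and Slamf6. Slamf1, Cd84 and Slamf6 occupy its last 182 kb, from 171767131 to 171948958, with no other gene of the files between them. Ly9, Slamf7 and Cd48 on the other side did not pass, and Cd244, a receptor of natural killer cells, was at or below 0.04 FPKM in all libraries. Beyond Slamf6 the next listed genes are Vangl2 and Nhlh1, under the filter, and then Ncstn and Copa, of which Ncstn had a log2 change of 0.01 (limma adjusted p = 0.943) and Copa of 0.00 (0.980). The difference in response between the neighbours was not tested, and Slamf6 passed under fewer alternatives than Slamf1 and Cd84.

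**Figure D3:**
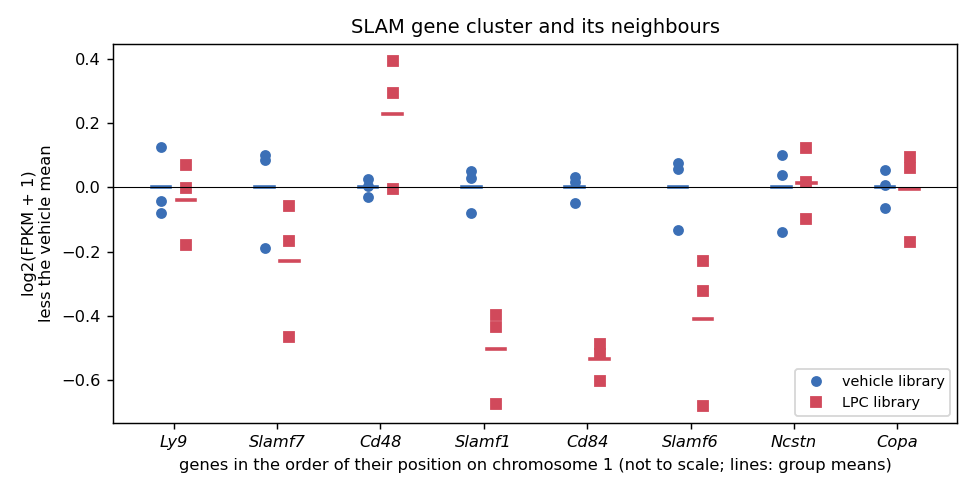
Each library's log2(FPKM + 1) less the vehicle mean of the same gene, for genes of the SLAM cluster and the 2 nearest tested genes beyond it, in chromosome order; lines are group means. LPC libraries lie below all vehicle libraries for Slamf1, Cd84 and Slamf6 and overlap the vehicle libraries for Ly9, Slamf7, Cd48, Ncstn and Copa.

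The stretches before the starts of these 3 genes are shown beside that of Slamf7, a gene of the cluster that did not pass. The interval of Slamf7 (-0.48 to 0.02) overlaps that of Slamf6 (-0.67 to -0.15), so Slamf7 is not shown to be unchanged. The sequences are from RefSeq on GRCm38.p6 and run from base 250 to base 11 before the annotated start, 5′ to 3′ on the gene's strand. None overlaps an exon of the GENCODE annotation, and the Slamf7 stretch lies within the span of the gene, before an internal start. Promoters of 19 of the 32 genes were matched in the RefSeq table. The 4 shown were searched on both strands for TGGAAA (core of NFAT sites), TGANTCA (AP-1), TCACACC (T-box), TGTGGT (RUNX), CCGGAAG (ETS) and CAGCTG (an E-box), and matches are in capitals.
Slamf1, plus strand, chr1:171766882-171767121: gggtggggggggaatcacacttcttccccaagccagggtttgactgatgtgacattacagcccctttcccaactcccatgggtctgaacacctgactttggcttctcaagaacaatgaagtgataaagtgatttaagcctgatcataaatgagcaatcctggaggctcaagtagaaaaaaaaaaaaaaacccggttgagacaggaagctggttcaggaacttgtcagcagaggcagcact
Cd84, plus strand, chr1:171839447-171839686: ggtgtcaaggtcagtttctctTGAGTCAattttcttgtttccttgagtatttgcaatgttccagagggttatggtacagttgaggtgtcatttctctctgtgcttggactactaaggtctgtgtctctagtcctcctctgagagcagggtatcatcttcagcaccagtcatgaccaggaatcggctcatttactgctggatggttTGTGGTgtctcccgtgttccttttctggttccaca
Slamf6, plus strand, chr1:171917212-171917451: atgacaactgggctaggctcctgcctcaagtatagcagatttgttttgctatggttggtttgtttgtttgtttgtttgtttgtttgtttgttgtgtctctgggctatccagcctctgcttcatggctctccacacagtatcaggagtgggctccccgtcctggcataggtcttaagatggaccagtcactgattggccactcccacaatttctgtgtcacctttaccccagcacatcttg
Slamf7, minus strand, chr1:171649010-171649249: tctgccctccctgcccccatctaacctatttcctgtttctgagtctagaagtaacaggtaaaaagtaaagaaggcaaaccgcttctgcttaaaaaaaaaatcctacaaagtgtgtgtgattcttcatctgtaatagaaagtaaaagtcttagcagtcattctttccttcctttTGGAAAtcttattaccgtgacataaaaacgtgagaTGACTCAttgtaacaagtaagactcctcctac
Cd84 held TGAGTCA starting 229 bases before its start and TGTGGT starting 45 bases before it. Slamf7 held TGGAAA starting 77 bases and TGACTCA starting 42 bases before its start. Slamf1 and Slamf6 held none of the 6 motifs in these windows. Of 32851 promoter windows of the same length, TGANTCA was found in 6.6%, TGTGGT in 13.6%, TGGAAA in 18.0%, CAGCTG in 12.4%, CCGGAAG in 6.2% and TCACACC in 3.2%. No motif was common to the 3 SLAM genes that fell, and a match describes letters, not a bound site. Each motif was found in at most 18.0% of windows, so 3 given windows would seldom share 1. Shared regulation was not tested.

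Among nectin and nectin-like binding proteins, the costimulatory receptor gene Cd226 fell most. Cd226, on chromosome 18 at 89176954 to 89272232, was listed at 10.11, 11.02 and 10.63 FPKM with vehicle and at 6.02, 6.97 and 5.87 FPKM with LPC. The lowest vehicle library was well above the highest LPC library, and the mean fell from 10.6 ± 0.457 to 6.29 ± 0.597 FPKM, a ratio of 0.59 (log2 change -0.67, SE 0.10, limma adjusted p = 0.00141). Pvr, its ligand gene, on chromosome 7 at 19903578 to 19921143, was listed at 25.63, 26.26 and 22.82 FPKM with vehicle and at 17.87, 19.18 and 16.01 FPKM with LPC. These groups did not overlap (-0.47, SE 0.10, adjusted p = 0.00805). The transcripts of a receptor and of its ligand were thus both lower in the LPC libraries.

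Cd96, another receptor for the same ligand, was listed at 7.72, 9.01 and 8.26 FPKM with vehicle and at 5.89, 7.99 and 6.18 FPKM with LPC. LPC replicate 2 reached into the vehicle range and the gene did not pass (log2 change -0.29, limma adjusted p = 0.111), whereas without LPC replicate 2 it passed (-0.41, adjusted p = 0.0217). With GC and length trends removed, its log2 change was -0.23 (limma adjusted p = 0.0819). Crtam, a receptor of activated T cells that binds a nectin-like protein, was listed at 7.19, 7.32 and 8.35 FPKM with vehicle and at 5.61, 7.07 and 6.10 FPKM with LPC (-0.25, adjusted p = 0.132, and 0.0467 without LPC replicate 2). With GC and length trends removed, the log2 change of Crtam was -0.14 (limma adjusted p = 0.281). Nectin2, a further ligand of CD226, was listed at 1.67 ± 0.183 and 1.30 ± 0.162 FPKM (-0.22, adjusted p = 0.174). The Crtam and Nectin2 groups did not overlap. All 5 genes of this set were listed lower with LPC on average, as were 5908 of all 10138 tested genes by their log2 change, and 2 of the 5 passed, where 13.7% of all tested genes did. Tigit, the inhibitory receptor that competes with CD226 for the same ligand, moved the other way. It was listed at 28.72, 26.79 and 27.59 FPKM with vehicle and at 40.74, 34.65 and 37.82 FPKM with LPC, and it rose (0.43, SE 0.09, adjusted p = 0.00874).

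Genes that act with these receptors were read from the same fit. Of 42 tested genes of integrin activation and linkage to the cytoskeleton, 5 fell and none rose, a share of 11.9% against 13.7% over all genes. Skap1, an adaptor that links the T cell receptor to integrin activation, averaged 59.8 ± 2.45 FPKM with vehicle and 44.1 ± 2.18 FPKM with LPC (log2 change -0.43, limma adjusted p = 0.00681). Rasgrp1, an exchange factor for Ras, fell from 30.0 ± 1.11 to 21.5 ± 3.33 FPKM (-0.48, adjusted p = 0.0132). Fyb, which encodes the SKAP partner ADAP, fell from 80.3 ± 7.86 to 58.6 ± 9.68 FPKM (-0.46, adjusted p = 0.0248). The others were Cyth1 (-0.33) and Skap2 (-0.32), named after their values were seen. The number of falls in this set was 2 when vehicle replicate 2 or 3 was left out, 3 when vehicle replicate 1 was and 9 when LPC replicate 2 was. In that order of fits, falls over all tested genes numbered 325, 508, 288 and 1217, where the reported fit gave 802.

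Of 13 tested genes of SLAM and CD2 signalling, 2 fell and none rose, and this share of 15.4% was near the 13.7% over all tested genes. Fyn, the kinase recruited by SAP, averaged 91.0 ± 4.23 FPKM with vehicle and 72.7 ± 6.76 FPKM with LPC (log2 change -0.32, limma adjusted p = 0.0356). Inpp5d, which encodes the phosphatase SHIP-1, fell from 19.8 ± 0.605 to 15 ± 2.86 FPKM (-0.39, adjusted p = 0.0462). Neither passed without vehicle replicate 1, 2 or 3, without LPC replicate 3 or with median centring. Fyn was also lost without LPC replicate 1, and the adjusted p in these fits was 0.0507 to 0.149 for Fyn and 0.0724 to 0.120 for Inpp5d.

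Of 24 tested genes for other adhesion receptors, Tigit, Bsg and Cd81 rose and none fell, a share of 12.5% that was also near the 13.7% over all tested genes. Bsg, which encodes the matrix protease inducer basigin, was listed at 234 ± 12 and 306 ± 42.9 FPKM (log2 change 0.38, by limma adjusted p = 0.0367), and the tetraspanin gene Cd81 at 102 ± 4.58 and 124 ± 4.21 FPKM (0.28, adjusted p = 0.0437). Bsg and Cd81 lost their calls without vehicle replicate 1, 2 or 3 or without LPC replicate 1 or 3 (adjusted p of 0.0695 to 0.148 for Bsg and 0.0630 to 0.183 for Cd81), and Tigit passed in each of those fits. Of 15 tested enzymes that build selectin ligands, 1 rose and 2 fell, a share of 20.0% against 13.7% over all tested genes. The sulfotransferase gene Chst2 rose (0.39, adjusted p = 0.0237). The core O-glycan synthase gene C1galt1 (-0.45, adjusted p = 0.0168) and the sialyltransferase gene St3gal6 (-0.36, adjusted p = 0.0301), the latter named after its values were seen, fell. All 3 lost their calls without LPC replicate 1. Leaving out vehicle replicate 2 also ended the call of each, vehicle replicate 1 those of C1galt1 and St3gal6, and vehicle replicate 3 those of Chst2 and St3gal6.

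The adhesion genes that fell had a lower GC share than most tested genes. Over all tested genes with a known transcript, GC share and the log2 change had a correlation of 0.26 (across 10009 genes), and log2 transcript length and the log2 change one of -0.30, genes not being independent replicates. Across the 27 adhesion genes the values were 0.54 and -0.40. The 6 genes that fell had GC shares of 35.0% to 48.9%, and Icam2 had 53.9%. The median was 50.1% over all tested genes and 48.6% over the 27 adhesion genes. Those of the 27 that did not pass ran from 41.1% to 58.6%. Cd226 had the lowest GC share of the 27 (35.0%). When each library's trend with GC share and length was removed, Cd226 (-0.52), Cd84 (-0.42), Slamf1 (-0.43), Pvr (-0.43), Itga6 (-0.35) and Icam2 (0.54) still passed, with a limma adjusted p of at most 0.0147. Slamf6 was lost, and Itga3, Icam1, Cd44 and Cd48 were added, which gave 5 rises and 5 falls. This fit called more genes in general. Of 10009 genes it called 1137 higher and 1140 lower, where the reported fit called 590 and 802 of 10138.

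**Figure D4:**
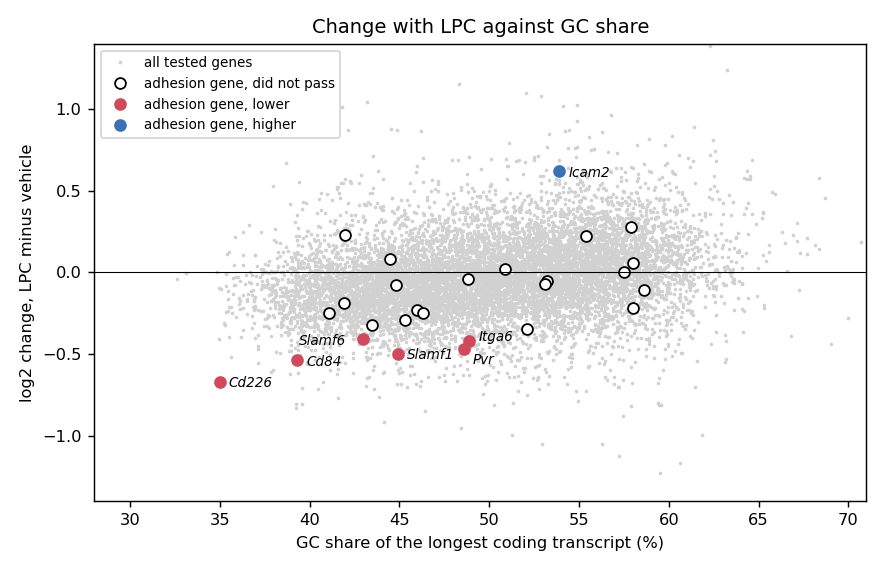
Log2 change, LPC minus vehicle, against the GC share of the longest coding transcript for all tested genes (grey, 7 lie outside the axes) and the 27 adhesion genes (circles). The genes that fell lie at 35.0% to 48.9% GC and Icam2 at 53.9%.

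Cd226, Cd84, Slamf1 and Pvr passed the test in the reported fit and in all 13 alternatives. Their highest adjusted p over these fits was 0.0267 for Cd226, 0.0267 for Cd84, 0.0401 for Slamf1 and 0.0489 for Pvr, by limma. Without LPC replicate 3, the library that stood apart, all 7 calls held, with log2 changes from -0.63 (Cd226) to 0.51 (Icam2). Falls among the adhesion genes numbered 4 when LPC replicate 1 or vehicle replicate 1 was left out and 10 when LPC replicate 2 was. Falls over all tested genes moved the same way. They went from 802 in the reported fit to 396, 288 and 1217 in these fits, in that order. Rises among the adhesion genes numbered 2 when LPC replicate 1 was left out. Rises over all tested genes then went from 590 to 306.

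**Figure D5:**
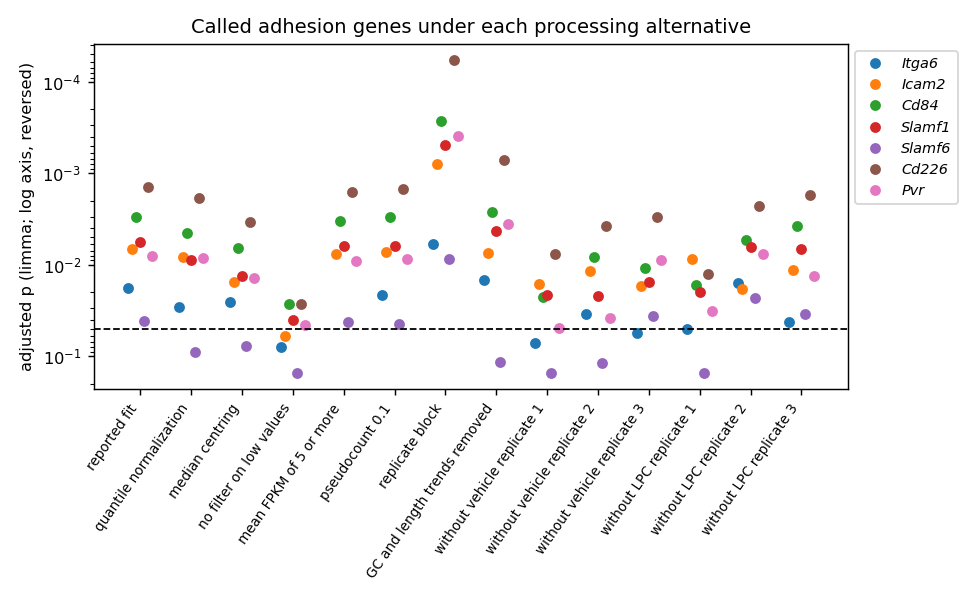
Adjusted p of the 7 called adhesion genes in the reported fit and in each alternative (log axis, reversed, so that higher points are smaller p); the dashed line is 0.05. Cd226, Cd84, Slamf1 and Pvr stay above the line throughout, while Slamf6 falls below it in 7 of 13 alternatives.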

How the data were processed

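RNA was sequenced on a BGISEQ-500, aligned to GRCm38 with Bowtie2 and quantified with RSEM, per the labels' protocols; tool versions: not given in the sources used here. FPKM values were deposited by the authors with 2 decimals, 1 file per library, for the same 18046 genes. RSEM divides reads shared by similar genes by estimate. Gene identifiers were used to restore 24 symbols turned into dates, and coordinates came from RefSeq (GRCm38.p6, 99.29% of identifiers matched).

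A limma-trend model (limma 3.58.1, R 4.3.3) with group alone was fitted to log2(FPKM + 1) of 10138 genes with 1 FPKM or more in 3 or more libraries. P-values were adjusted over all of these genes by the Benjamini-Hochberg method. The fit was tested on simulated data. GC share and length came from the longest coding GENCODE transcript (98.73% of tested genes), and trends were fitted with splines of 4 degrees of freedom.

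Depth was estimated from how near low FPKM values of genes with 1 transcript came to whole reads, so it is approximate. The members, lists and tests were chosen with earlier results of these data known, and no list was given a set test. All 32 members are named, and of each other list up to 3 changed genes in each direction with a mean of 5 FPKM or more. Symbols not listed in the files (9 over all lists) were left out. No pair of libraries held the same values. Alternatives were another scaling (quantile, median), filter or pseudocount (0.1), a replicate block, GC and length trends removed, and each library left out.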

Additional observations from a re-analysis of the deposited data

How the results depend on the processing

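Over the fits of single adhesion genes, 306 kept direction and side of the threshold, 19 newly passed, 12 no longer passed and 9 turned sign. Signs turned for genes with changes near 0: Itgal without LPC replicate 3 (0.06), Itgb1 with GC and length trends removed (0.02), Itgb7 without LPC replicate 1 (-0.06), Cd2 with quantile normalization (-0.11), GC and length trends removed (-0.04) and without LPC replicate 3 (-0.02), and Ly9 with median centring (0.01), without vehicle replicate 2 (0.02) and without LPC replicate 3 (0.03). With a library left out, the range was -0.12 to 0.06 for Itgal, -0.06 to 0.13 for Itgb7, -0.02 to 0.05 for Cd2 and -0.09 to 0.03 for Ly9. Itga5, at 0.00 in the reported fit, is not among the 9 and took both signs, from -0.11 without LPC replicate 1 to 0.12 without LPC replicate 3. The cause was not tested.

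Among adhesion genes, higher calls (1) became 2 with quantile normalization, 3 with median centring, 0 with no filter on low values and 5 with GC and length trends removed, and 1 to 2 with a library left out. Lower calls (6) ranged from 4 to 10 with a library left out. Over all genes, higher calls (590) became 236 with no filter and 1137 with GC and length trends removed, and 225 to 809 with a library left out; lower calls (802) became 228 with no filter, and 288 to 1217 with a library left out.

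For integrin activation and linkage, higher calls (0) became 3 with GC and length trends removed and 0 to 1 with a library left out, and lower calls (5) became 2 with no filter and 2 to 9. For SLAM and CD2 signalling, lower calls (2) became 0 with median centring, 0 with no filter and 0 to 2 with a library left out. For other adhesion receptors, higher calls (3) became 5 and lower calls (0) became 1 with GC and length trends removed, and 1 to 4 and 0 to 2 with a library left out. For selectin ligand glycosylation, higher calls (1) became 0 with no filter and 0 to 1 with a library left out. Its lower calls (2) became 0 with no filter, 1 with each of quantile normalization, median centring, a mean FPKM of 5 or more, and GC and length trends removed, and 0 to 3 with a library left out.

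With the replicate number as a block, adhesion genes gave 3 higher and 11 lower calls, and all genes 1180 and 1661. Under this replicate block integrin activation and linkage gave 1 and 11, and other adhesion receptors 5 and 3. Each library's deviations from its group mean were correlated between the groups over all tested genes. Same-numbered libraries had correlations of 0.02, 0.56 and 0.41, and vehicle replicate 1 had 0.06 with LPC replicate 3. The correlation was -0.45 for vehicle replicate 3 with LPC replicate 2 and -0.5 for vehicle replicate 2 with LPC replicate 3. The labels tie no number to a shared mouse, culture or day, so the numbers were not used as pairs. Deviations from a group mean cancel out within a group of 3 libraries. The correlations therefore depend on one another. The low value of 1 pair cannot show that pairing is absent, nor can the values of 0.56 and 0.41 show that it is present. Whether some libraries share a source was not tested. Values to 2 decimals and the depth limit genes under 1 FPKM such as Itgax, Itgae and Itga1.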
